A study of Mus musculus with 12 samples.

Results

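The interferon gamma axis was followed in mouse colon through 9 genes: the cytokine Ifng, its receptor chains Ifngr1 and Ifngr2, the transcription factor Irf1, the feedback inhibitor Socs1, the chemokines Cxcl9 and Cxcl10, their receptor Cxcr3, and Cd274, which encodes the checkpoint ligand PD-L1. The members were taken by symbol from the platform annotation, with the probe of highest mean for each gene. All 9 were found among 19505 named genes, and each had 1 probe. Healthy male mice of 4 genotypes aged 12 to 16 weeks were compared, with 3 Affymetrix arrays each: the double knockout (DKO), which lacks both IL4i1 and LAO1, the IL4i1 knockout, the LAO1 knockout and the wild type. Il4i1 and Lao1 encode enzymes that oxidise L-amino acids, and the study asked what the joint loss of both does to the colon. The mouse strain, the way the alleles were made and whether each array held RNA of 1 mouse are not given in the sources used here. The labels name 4 selected mice per genotype, and how these relate to the 3 arrays is not given. If arrays of a genotype did not come from separate animals, p-values measure only a technical spread.

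Interferon gamma is made by activated T cells, NK cells and other innate lymphocytes. It binds a receptor of IFNGR1 and IFNGR2 chains, whose Janus kinases carry the signal towards the nucleus. Target genes, among them Irf1, can hold gamma-activated sites (GAS), and IRF1 then acts on interferon-stimulated response elements (ISRE). In the intestine the response arms epithelial cells and macrophages against intracellular microbes, and the induced chemokines CXCL9 and CXCL10 draw T cells that carry CXCR3. SOCS1 blocks the kinases, and PD-L1 restrains T cells through PD-1.

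Levels below are log2 values of the deposited table, 22206 probes by 12 arrays. A level of 4.68, the 95th percentile of mean levels over 1091 olfactory receptor probes, was taken as the background, since the colon is not known to use those genes. All 12 listed markers of colon epithelium lay above it on average, with list means of 13.92 to 15.33 by array. A few arrays stood apart. IL4i1 knockout replicate 2 lay at 68.9 on the first principal component, where the others lay at or below 20.7. DKO replicate 1 stood at -61.7 on the second, where the others lay at or above -29.9, and it was also the array with the highest level of 6 members. In DKO replicate 2 a list of pancreatic acinar genes averaged 16.59, against 4.06 to 4.85 in the other 11 arrays. The Lao1 probe lay between 2.64 and 3.56 on all arrays, below the background, so it checked nothing, and Il4i1 was not analysed here: the genotypes rest on the labels.

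The promoters of the members that carried the largest differences are shown first, because GAS and ISRE letters there are where the pathway is known to act. The windows hold the 250 bases before the start in RefSeq's GRCm38.p6, printed 5′ to 3′ along the gene's strand. Capitals mark each match to GAS (TTCNNNGAA, a palindrome) or to an ISRE core (GAAA, then NN, then GAAA, searched on both strands).
Irf1, chr11:53769764-53770013, plus strand: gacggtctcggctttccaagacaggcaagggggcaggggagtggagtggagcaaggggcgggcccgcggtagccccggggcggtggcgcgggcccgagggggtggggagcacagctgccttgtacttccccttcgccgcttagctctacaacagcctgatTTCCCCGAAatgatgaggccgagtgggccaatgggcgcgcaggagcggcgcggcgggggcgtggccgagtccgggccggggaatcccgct
Socs1, chr16:10785537-10785786, minus strand: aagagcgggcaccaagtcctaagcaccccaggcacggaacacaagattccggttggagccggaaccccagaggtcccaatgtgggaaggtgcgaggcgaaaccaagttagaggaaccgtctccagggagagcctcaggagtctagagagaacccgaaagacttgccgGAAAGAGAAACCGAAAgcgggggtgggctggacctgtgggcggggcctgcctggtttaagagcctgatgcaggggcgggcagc
Cxcl10, chr5:92348890-92349139, minus strand: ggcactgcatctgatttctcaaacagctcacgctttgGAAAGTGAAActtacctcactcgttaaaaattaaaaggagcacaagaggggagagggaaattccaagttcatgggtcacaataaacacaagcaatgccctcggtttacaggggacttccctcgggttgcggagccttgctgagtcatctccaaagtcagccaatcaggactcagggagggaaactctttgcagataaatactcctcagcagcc
Cxcl9, chr5:92328080-92328329, minus strand: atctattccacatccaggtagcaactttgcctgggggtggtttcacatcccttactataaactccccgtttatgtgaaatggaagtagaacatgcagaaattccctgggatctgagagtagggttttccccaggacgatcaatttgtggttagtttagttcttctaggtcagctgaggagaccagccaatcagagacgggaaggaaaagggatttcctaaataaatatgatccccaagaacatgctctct
Cd274, chr19:29367188-29367437, plus strand: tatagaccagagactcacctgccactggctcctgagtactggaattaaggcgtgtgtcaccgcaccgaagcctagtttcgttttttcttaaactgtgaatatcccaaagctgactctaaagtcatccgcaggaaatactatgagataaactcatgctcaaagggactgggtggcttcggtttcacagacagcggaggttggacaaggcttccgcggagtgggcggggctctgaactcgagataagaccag

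The Irf1 window, of the first of its 2 annotated starts, held the GAS letters TTCCCCGAA from -90 to -82. In the Socs1 window a pair of overlapping ISRE cores, GAAAGAGAAA from -83 to -74 and GAAACCGAAA from -77 to -68, formed 1 unbroken run. Cxcl10 held the ISRE core GAAAGTGAAA from -213 to -204, whereas neither pattern occurred in the windows of its neighbour Cxcl9 or of Cd274. The Cd274 window, from 29367188 to 29367437, lies inside the annotated gene, which spans 29362107 to 29388095. The bases before that gene's first position were therefore not searched. Over all 9 members GAS letters stood in 2 (Irf1 and Ifng) and ISRE cores in 2 (Socs1 and Cxcl10). Among all 27025 annotated genes, 8.13% held GAS letters and 3.46% an ISRE core in the same window. A match is a description of letters, and a window without one says nothing on binding.

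The ligand Ifng was near background. It lay at 5.51, 4.34 and 4.77 in DKO arrays, 4.62, 3.93 and 4.34 in IL4i1 knockout arrays, 3.84, 3.4 and 3.7 in LAO1 knockout arrays, and 4.13, 3.69 and 4.07 in wild type arrays. Only 2 of the 12 values, both DKO, exceeded the background level. All DKO values lay above all wild type values, but the difference of 0.91 (SE 0.29) did not pass limma's test (adjusted p = 0.504). It was 1.23 from the LAO1 knockout (SE 0.29, adjusted p = 0.217) and 0.58 from the IL4i1 knockout (SE 0.29, adjusted p = 0.544), and the IL4i1 and DKO ranges overlapped. Without DKO replicate 1 the difference from wild type was 0.59. In whole tissue, more cells of a type and more RNA per cell cannot be told apart.

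The receptor chains were well above background in every genotype and spanned less than 1 log2 unit over the 12 arrays. Ifngr1, the ligand-binding chain, was at 12.61, 12.7 and 12.24 in DKO arrays, 12.97, 13.06 and 13 in IL4i1 knockout arrays, 13.03, 12.81 and 12.63 in LAO1 knockout arrays, and 12.6, 12.74 and 12.12 in wild type arrays. The IL4i1 knockout arrays lay above the DKO and the wild type arrays without overlap, but neither difference passed (-0.49 for DKO minus IL4i1 knockout, adjusted p = 0.474, and 0.52 for IL4i1 knockout minus wild type, adjusted p = 0.622). DKO and wild type differed by 0.03, with a 95% confidence interval of -0.43 to 0.49. Ifngr2, the signalling chain, averaged 11.53 ± 0.14 in the DKO, 11.81 ± 0.14 in the IL4i1 knockout, 12.02 ± 0.27 in the LAO1 knockout and 11.84 ± 0.25 in wild type (SD, n = 3). Genotypes next to each other in order of mean overlapped. Only the ends of that order separated, with DKO arrays below LAO1 knockout arrays (-0.5, SE 0.21, adjusted p = 0.662).

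Irf1, the first transcription factor in the cascade, was brightest in the DKO. Its level was 13.84, 12.84 and 13.46 in DKO arrays, 10.39, 10.5 and 10.89 in IL4i1 knockout arrays, 11.23, 11.82 and 10.72 in LAO1 knockout arrays, and 11.59, 10.78 and 12.39 in wild type arrays. The DKO values lay above all 9 others, and the other 3 genotypes overlapped at each step of their order. Irf1 rose 6.9-fold in the DKO over the IL4i1 knockout (log2 2.79, SE 0.39, adjusted p = 0.00533). The difference was 2.12 from the LAO1 knockout (SE 0.39, adjusted p = 0.0614) and 1.79 from wild type (SE 0.39, adjusted p = 0.259), neither past the threshold. Against the IL4i1 knockout the call held without any 1 array, at 2.56 to 3.06 (adjusted p = 0.00388 to 0.0347), and ended with values below background set to it (adjusted p = 0.0886). That setting changed no Irf1 value, as all 12 lay above background. The difference stayed at 2.79, with an SE of 0.45.

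Socs1, which switches the receptor's kinases off, was also brightest in the DKO. It lay at 6.42, 5.9 and 5.64 in DKO arrays, 3.76, 4.68 and 4.43 in IL4i1 knockout arrays, 5.05, 5.4 and 4.79 in LAO1 knockout arrays, and 5.02, 5.25 and 4.82 in wild type arrays. DKO arrays lay above all others and IL4i1 knockout arrays below all others, while the LAO1 knockout and wild type overlapped. It rose in the DKO over the IL4i1 knockout by 1.7 (SE 0.28, adjusted p = 0.0158), whose arrays lay near or below the background level. The call ended without IL4i1 knockout replicate 1 (1.43, adjusted p = 0.0518) and without DKO replicate 1 (1.48, adjusted p = 0.0872), on the compared arrays alone (adjusted p = 0.144) and with values below background set to it (adjusted p = 0.0942). DKO minus LAO1 knockout was 0.91 (adjusted p = 0.483) and DKO minus wild type 0.96 (adjusted p = 0.444).

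**Figure D1:**
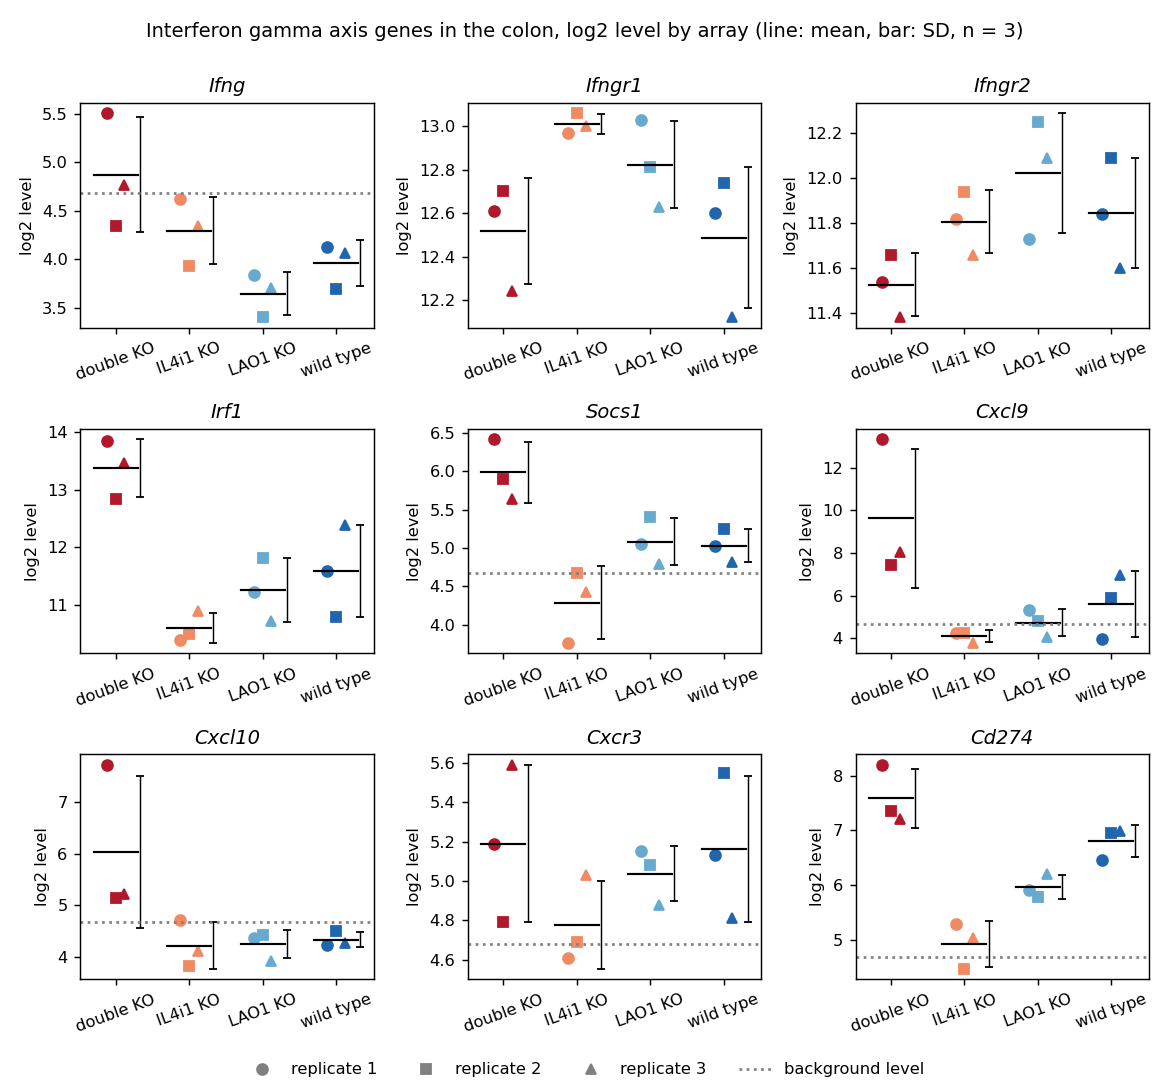
Log2 level (y axis) of each of the 9 genes on the 12 arrays, by genotype (x axis); symbols mark replicates, lines means, bars the SD (n = 3) and the dotted line the background level of 4.68. Irf1, Socs1, Cxcl9, Cxcl10 and Cd274 have all 3 double knockout arrays above the other 9, with replicate 1 highest, while Ifngr1, Ifngr2 and Cxcr3 span less than 1 log2 unit. The share of all probes with double knockout arrays above the other 9 is not given here.

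Cxcl9, a chemokine induced chiefly by interferon gamma, had the largest spread of the 9 genes, 9.59 log2 units. Its level was 13.36, 7.46 and 8.06 in DKO arrays, 4.27, 4.27 and 3.77 in IL4i1 knockout arrays, 5.33, 4.83 and 4.05 in LAO1 knockout arrays, and 3.97, 5.88 and 6.99 in wild type arrays. Each DKO value exceeded each of the others, and the IL4i1 knockout values were all below background. The differences of 4.01 from wild type (SE 1.17, adjusted p = 0.444), 4.89 from the LAO1 knockout (adjusted p = 0.227) and 5.52 from the IL4i1 knockout (adjusted p = 0.0647) did not pass. Their size rested in part on DKO replicate 1, without which they were 2.15, 3.02 and 3.66. Without DKO replicate 2 the difference from the IL4i1 knockout was 6.61 and passed (adjusted p = 0.0215).

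Cxcl10, the neighbouring chemokine gene, also had its highest value in DKO replicate 1. It lay at 7.72, 5.13 and 5.22 in DKO arrays, 4.72, 3.83 and 4.11 in IL4i1 knockout arrays, 4.36, 4.43 and 3.93 in LAO1 knockout arrays, and 4.23, 4.5 and 4.27 in wild type arrays. Only 4 of the 12 values exceeded background, 3 of them DKO. DKO minus wild type was 1.69 (SE 0.52, adjusted p = 0.493), and 0.84 without DKO replicate 1. Against the LAO1 and IL4i1 knockouts it was 1.78 (adjusted p = 0.431) and 1.8 (adjusted p = 0.214). The remaining genotypes averaged 4.22 to 4.33 and overlapped.

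Cxcr3, the receptor for both chemokines on T and NK cells, was dim in every genotype. Its level was 5.19, 4.79 and 5.59 in DKO arrays, 4.61, 4.69 and 5.03 in IL4i1 knockout arrays, 5.15, 5.08 and 4.88 in LAO1 knockout arrays, and 5.13, 5.55 and 4.81 in wild type arrays. All genotypes overlapped with their neighbours in order of mean. DKO minus wild type was 0.03, with a 95% confidence interval of -0.51 to 0.56 (adjusted p = 0.99). DKO minus IL4i1 knockout was 0.41, with an interval of -0.12 to 0.95 (adjusted p = 0.633).

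Cd274, whose PD-L1 protein interferon gamma induces on epithelial and myeloid cells, separated all 4 genotypes. It lay at 8.2, 7.35 and 7.2 in DKO arrays, 5.29, 4.46 and 5.02 in IL4i1 knockout arrays, 5.9, 5.77 and 6.2 in LAO1 knockout arrays, and 6.46, 6.95 and 6.98 in wild type arrays. The order was DKO, wild type, LAO1 knockout, IL4i1 knockout, with no overlap at any step. How many of all probes separate the 4 genotypes in this way was not counted. Cd274 rose 6.32-fold in the DKO over the IL4i1 knockout (log2 2.66, SE 0.29, adjusted p = 0.000898), and without any 1 array the adjusted p was 0.00137 to 0.00729. DKO minus LAO1 knockout was 1.63 (SE 0.29, adjusted p = 0.0539) and DKO minus wild type 0.79 (SE 0.29, adjusted p = 0.58). The IL4i1 knockout stood 1.87 under wild type on the log2 scale (difference -1.87, SE 0.29, adjusted p = 0.0709) and the LAO1 knockout 0.84 under it (difference -0.84, SE 0.29, adjusted p = 1), so the steps below wild type were not past the threshold.

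**Figure D2:**
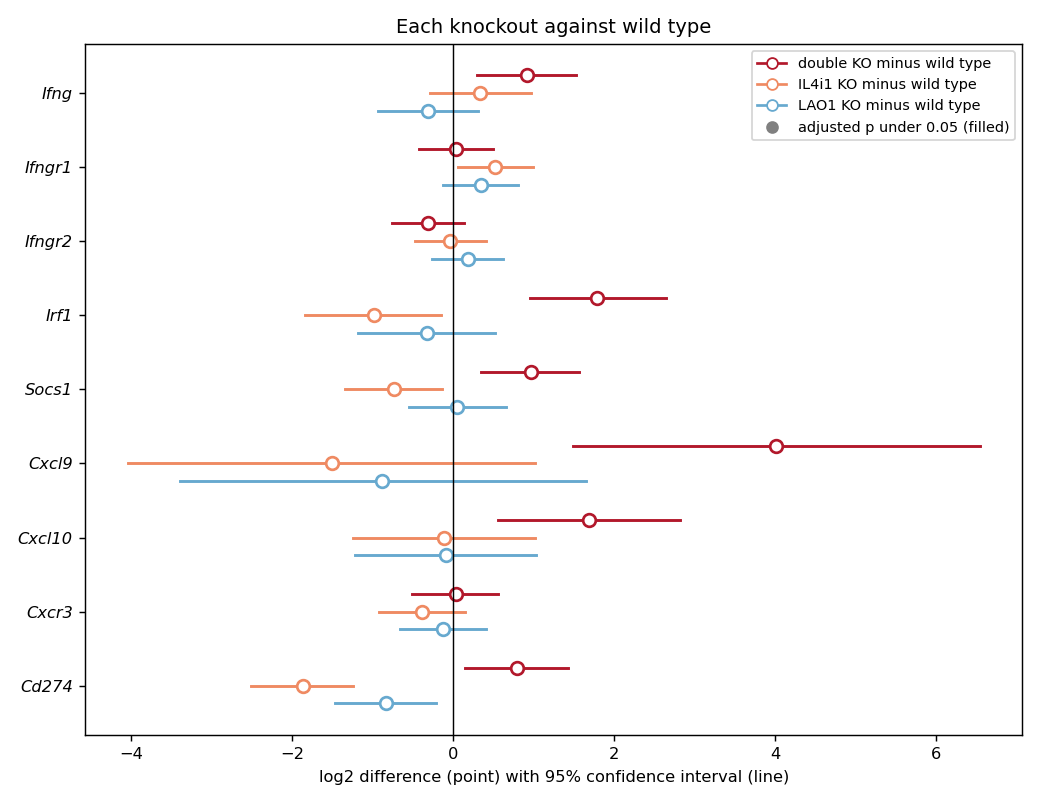
Log2 difference of each genotype from wild type (x axis) for the 9 genes (y axis), with 95% confidence intervals from limma; filled points would mark an adjusted p under 0.05, and there are 0. The double knockout intervals lie above 0 for Ifng, Irf1, Socs1, Cxcl9, Cxcl10 and Cd274. Those of the IL4i1 knockout lie below 0 for Irf1, Socs1 and Cd274 and above 0 for Ifngr1. The LAO1 knockout interval lies below 0 for Cd274 alone.

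Counted together, 0 of the 9 members passed limma's test in the DKO against wild type, where 0.0225% of all probes passed. At an unadjusted p under 0.05, 6 were higher, against 3.63% of all probes, and the same 6 (Ifng, Irf1, Socs1, Cxcl9, Cxcl10 and Cd274) had all 3 DKO arrays above all wild type arrays, against 5.68% of probes. The median difference of the 9 was 0.91, and that of all probes 0. The IL4i1 knockout against wild type had 0 members past limma's threshold (0.0135% of probes), with Ifngr1 higher (3.25% of probes higher) and Irf1, Socs1 and Cd274 lower (4.34% of probes lower) at an unadjusted p under 0.05. Its median was -0.39, beside 0.03 for all probes. In the LAO1 knockout against wild type 0 passed (0.0045% of probes), with Cd274 alone lower at an unadjusted p under 0.05 (1.57% of probes) and a median of -0.13, beside 0.01. These 3 comparisons share the wild type arrays.

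Irf1, Socs1 and Cd274, 3 of 9 members, rose over the IL4i1 knockout, where 0.387% of all probes rose past the threshold, and the members' median was 1.7. At an unadjusted p under 0.05, Irf1, Socs1, Cxcl9, Cxcl10 and Cd274 were higher (5.17% of probes) and Ifngr1 lower (4.66% of probes). Over the LAO1 knockout 0 of 9 passed limma's test (0.14% of probes), with 6 higher and Ifngr2 lower at an unadjusted p under 0.05, against 3.51% and 3.64% of probes, and a median of 1.23. The 6 were those named against wild type. Without DKO replicate 2, Irf1 passed there (2.39, adjusted p = 0.0322). In the DKO against the mean of the other 3 genotypes, a contrast that shares arrays with all of these, Irf1 (2.23, adjusted p = 0.00606), Socs1 (1.19, adjusted p = 0.0438) and Cd274 (1.69, adjusted p = 0.00571) passed, 3 of 9 beside 0.329% of probes. Without DKO replicate 1 only Cd274 passed it; Irf1 was at 2 (adjusted p = 0.0782). With values below background set to it, all 3 calls of this contrast ended (adjusted p = 0.109 for Irf1, 0.113 for Socs1 and 0.0683 for Cd274). The Irf1 difference stayed at 2.23 there (SE 0.37), as none of its values lay below background. The Socs1 call ended without any 1 of 10 arrays, all but IL4i1 knockout replicates 1 and 2 (adjusted p = 0.0341 to 0.368 over the 12 runs).

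The interaction asked whether both losses together exceed the sum of the single ones on the log2 scale (DKO less both single knockouts plus wild type). Cd274 passed at 3.5 (SE 0.41, adjusted p = 0.00221) and Irf1 at 3.12 (SE 0.55, adjusted p = 0.0375), 2 of 9 members beside 0.207% of probes past the threshold on the positive side. The Cd274 call held without any 1 array, at 3.19 to 3.69. The Irf1 call ended without any 1 of 9 arrays, and held only without wild type replicate 2, LAO1 knockout replicate 2 or DKO replicate 2 (adjusted p = 0.0155 to 0.138 over the 12 runs). It also ended with quantile normalization (adjusted p = 0.101) and with values below background set to it (adjusted p = 0.292). The latter setting changed no Irf1 value and left the interaction at 3.12, with an SE of 0.64. Socs1 (1.65, adjusted p = 0.197) and Cxcl9 (6.4, SE 1.66, adjusted p = 0.252) did not pass. Ifngr1 had the opposite sign, -0.83 (SE 0.3, adjusted p = 0.554).

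**Figure D3:**
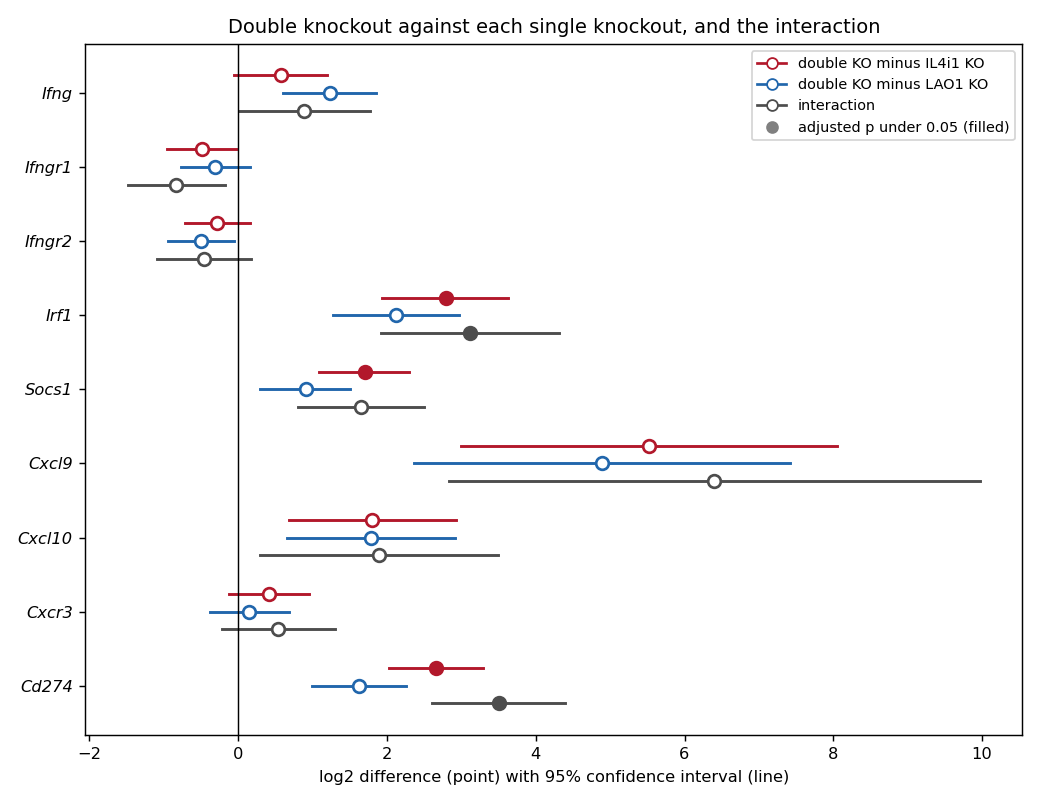
Log2 difference of the double knockout from each single knockout, and the interaction (x axis), for the 9 genes (y axis), with 95% confidence intervals from limma. Filled points, with an adjusted p under 0.05, are Irf1, Socs1 and Cd274 over the IL4i1 knockout and Irf1 and Cd274 in the interaction.

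Other genes that interferon gamma induces were read from a list of 24, of which 21 were measured. Over the IL4i1 knockout 12 of 21 rose in the DKO and 0 fell, over the LAO1 knockout 8 rose and 0 fell, and in the interaction 9 passed on the positive side. Of all probes, 0.387% rose over the IL4i1 knockout, 0.14% passed in either direction over the LAO1 knockout and 0.207% passed positively in the interaction. Against wild type 0 passed limma's test, with 18 higher and 0 lower at an unadjusted p under 0.05 (3.63% of all probes higher). Both single knockouts had negative medians against wild type on this list, with 0 past the threshold. At an unadjusted p under 0.05, 9 were lower and 0 higher in the IL4i1 knockout (4.34% of probes lower, list median -1.03). In the LAO1 knockout 7 were lower and 0 higher (1.57% of probes lower, list median -0.58). The DKO differences from the single knockouts and the interaction include these lower levels. The median difference of the DKO was 2.7 from the IL4i1 knockout, 2.35 from the LAO1 knockout and 1.77 from wild type. All probes had medians of -0.02, -0.01 and 0 there. By array the list averaged 10.09, 8.17 and 9.49 in the DKO, above all others, 6.33 to 6.6 in the IL4i1 knockout, 6.44 to 6.98 in the LAO1 knockout and 6.66 to 7.96 in wild type. Without any 1 array the count over the IL4i1 knockout was 8 to 13 and that of the interaction 8 to 12. Over the LAO1 knockout the 8 became 4 to 6 without any 1 LAO1 knockout array or without DKO replicate 1 or 3, and 13 without DKO replicate 2. Without DKO replicate 2, 8 listed genes also passed against wild type.

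Within that list the guanylate-binding proteins, which coat and break the vacuoles of intracellular microbes, were among the genes with the smallest p-values. Gbp3 was at 9.44, 8.14 and 9.23 in DKO arrays, 5.35, 5.75 and 5.79 in IL4i1 knockout arrays and 6.49, 7.26 and 7.08 in wild type arrays. It rose by 3.31 over the IL4i1 knockout (SE 0.33, adjusted p = 0.000701) and stood 1.99 from wild type (adjusted p = 0.0744). The immunity-related GTPase Igtp was at 10.1, 8.22 and 9.73 in DKO arrays against 4.35, 5.15 and 4.45 in IL4i1 knockout arrays, and rose by 4.7 (adjusted p = 0.0014). The IL4i1 knockout means of Igtp (4.65), Psmb9 (4.52) and Iigp1 (4.47) lay under the background level, so the sizes given for these genes over that genotype are not exact. The DKO difference of Igtp from wild type was 3.1 (adjusted p = 0.128). Gbp7 differed from wild type by 1.72 (adjusted p = 0.229) and rose over the IL4i1 knockout by 3.21 (adjusted p = 0.000882). Tap1, the peptide pump of MHC class I presentation, rose over the IL4i1 knockout by 4.41 (adjusted p = 0.00127), and the immunoproteasome subunits Psmb8 by 3.35 (adjusted p = 0.0103) and Psmb9 by 2.35 (adjusted p = 0.015). Gbp2, Irgm1, Irgm2, Iigp1, Wars and Zbp1 rose over it by 1.87 to 6.55. Ido1, which opens the kynurenine pathway, differed by 6.59 from the IL4i1 knockout (SE 1.34, adjusted p = 0.0523).

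Few upstream and feedback genes passed the test. Beside these and later lists, 5.17% of all probes were higher and 4.66% lower over the IL4i1 knockout at an unadjusted p under 0.05. Of 11 measured JAK-STAT signalling genes and their inhibitors, Stat2 alone rose over the IL4i1 knockout (1.44, SE 0.24, adjusted p = 0.018), with levels of 9, 9.5 and 9.65 in DKO arrays and 8.07, 8.01 and 7.74 in IL4i1 knockout arrays. STAT2 is a transcription factor of type I interferon signalling, and its gene also passed in limma's interaction test (1.94, adjusted p = 0.0382). The list median over the IL4i1 knockout was 0.19. Usp18, an inhibitor of the type I receptor, differed by 0.94 (adjusted p = 0.152) and Socs3 by 0.56 (adjusted p = 0.646). Of 9 transcription regulators 0 passed limma's test over the IL4i1 knockout, with 4 higher and 0 lower at an unadjusted p under 0.05 and a median of 0.83. Among them Irf8, a factor of myeloid cells, differed by 1.34 (adjusted p = 0.0936), the MHC class II activator Ciita by 2.01 (adjusted p = 0.109) and Batf2 by 1.76 (adjusted p = 0.212).

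Of 17 inducers and their receptors 0 passed limma's test over the IL4i1 knockout, with 4 higher and 1 lower at an unadjusted p under 0.05 and a median of 0.16. The cytokine Il18, a costimulus for Ifng, was at 7.01, 6.54 and 7.48 in DKO arrays, 9.31, 9 and 11.56 in IL4i1 knockout arrays and 9.42, 8 and 8.84 in wild type arrays, with DKO arrays below both (-2.95, adjusted p = 0.116, and -1.74, adjusted p = 0.616). Il18bp, which captures that cytokine, differed the other way by 1.27 from the IL4i1 knockout (adjusted p = 0.152) and Stat4 by 0.69 (adjusted p = 0.458). Of 14 other chemokines and receptors of T cell recruitment, 9 had positive differences over the IL4i1 knockout, with 3 higher and 0 lower at an unadjusted p under 0.05 and a median of 0.24. Among them Ccl8, a monocyte chemokine, rose over the IL4i1 knockout (3.39, SE 0.58, adjusted p = 0.018) and in the interaction (4.67, adjusted p = 0.0337). In contrast to Cxcl9 and Cxcl10, its lowest DKO value was that of replicate 1 (7.11, 9.16 and 8.78 in DKO arrays, 5.48, 4.34 and 5.07 in IL4i1 knockout arrays, 8.42, 6.83 and 6.25 in wild type arrays). Ccl5 (0.83, adjusted p = 0.627) and Ccl3 (0.52, adjusted p = 0.624) lay below the background level on nearly all arrays.

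Beside Cd274, 12 checkpoint genes were measured. Lgals9, which encodes the TIM-3 ligand galectin-9, rose over the IL4i1 knockout by 2.78 (SE 0.29, adjusted p = 0.000701) and passed in the interaction at 3.38 (adjusted p = 0.00242). Its levels were 11.16, 10.16 and 10.16 in DKO arrays, 8.1, 7.31 and 7.73 in IL4i1 knockout arrays, 9.09, 8.9 and 8.72 in LAO1 knockout arrays, and 9.28, 9.72 and 9.51 in wild type arrays, the same order of genotypes as Cd274 and again without overlap. Over the IL4i1 knockout all 12 had positive differences (median 0.65), with 5 higher and 0 lower at an unadjusted p under 0.05. The other 11 did not pass after adjustment, among them the costimulatory ligand Cd80 (1, adjusted p = 0.188) and the TIM-3 gene Havcr2 (0.57, adjusted p = 0.5). Of 19 genes of type I and III interferons and antiviral targets, Oasl2 alone rose over the IL4i1 knockout (2.66, SE 0.28, adjusted p = 0.000701), with levels of 10.61, 10.73 and 11.14 in DKO arrays and 8.13, 8.43 and 7.95 in IL4i1 knockout arrays. Oasl2 also passed in limma's interaction test (3.81, adjusted p = 0.000953), and 1 of the 19 genes rose past the threshold over the LAO1 knockout. Over the IL4i1 knockout Ifit3 (0.62, adjusted p = 0.402) and Ifit1 (0.68, adjusted p = 0.338) did not pass. Of the 19, 13 had positive differences over the IL4i1 knockout, with 7 higher and 0 lower at an unadjusted p under 0.05 and a median of 0.37. Against wild type 8 were positive, with 3 higher and 0 lower by that rule and a median of -0.01. In the IL4i1 knockout against wild type 5 were lower and 0 higher. DKO medians against wild type were 0.1 for signalling genes, 0.51 for regulators, 0.11 for inducers, 0.11 for chemokines and 0.21 for checkpoints, with 0 genes past the threshold.

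**Figure D4:**
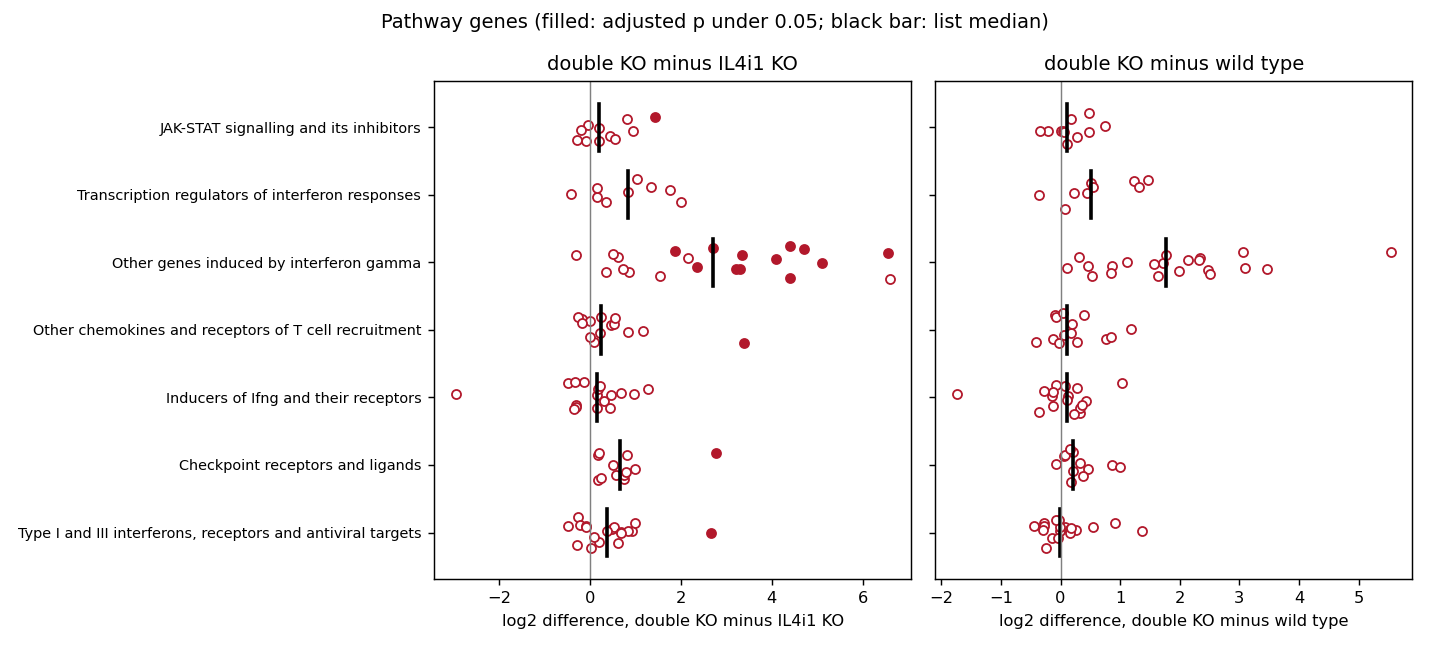
Log2 difference (x axis) of each measured gene of the 7 pathway lists (y axis), for the double knockout minus the IL4i1 knockout on the left and minus wild type on the right; filled points have an adjusted p under 0.05 and black bars are list medians. The listed interferon gamma targets have the highest median, 2.7 on the left and 1.77 on the right, and 12 of them pass on the left.

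Markers of the cells that make or receive the signal were set beside these results. The 18 markers of T, NK and innate lymphoid cells averaged 5.06 to 5.36 by array in the DKO, 4.65 to 5.04 in the IL4i1 knockout, 4.72 to 4.97 in the LAO1 knockout and 4.78 to 4.96 in wild type, with DKO arrays above all others by a small margin. On average 10 of the 18 lay below background, the killer cell genes Ncr1, Prf1 and Gzmb among them. Over wild type 0 passed limma's test, with 4 higher (Cd3e, Gzma, Nkg7 and Il7r, named after their values were seen) and Ncr1 lower at an unadjusted p under 0.05. Of all 22206 probes, 1653 met that rule against wild type in either direction, and 807 of them (3.63% of all probes) were higher. The 9 measured myeloid markers averaged 6.81 to 7.64 in the DKO, 5.84 to 6.7 in the IL4i1 knockout, 6.52 to 7.11 in the LAO1 knockout and 6.47 to 7.37 in wild type, and the DKO range overlapped those of the LAO1 knockout and wild type. B and plasma cell markers averaged 6.4 to 7.64 in the DKO and 5.5 to 8.07 elsewhere. The 6 smooth muscle genes averaged 15.25 to 15.89 in the DKO, 15.66 to 17.11 in the IL4i1 knockout, 15.13 to 16.15 in the LAO1 knockout and 15.63 to 16.35 in wild type. All 6 had negative differences in the DKO against the IL4i1 knockout (median -0.93, 3 lower at an unadjusted p under 0.05), the contrast in which Irf1, Socs1, Cd274 and 12 listed targets rose, and against wild type (median -0.54, 1 lower), while 0 passed limma's test in either. The myeloid markers had a median of 0.79 over the IL4i1 knockout, with 3 higher and 0 lower at an unadjusted p under 0.05. Adipocyte genes averaged 4.03 to 4.68 in the DKO and 4.46 to 5.37 elsewhere. The part of these markers in the results on the 9 genes was not tested.

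**Figure D5:**
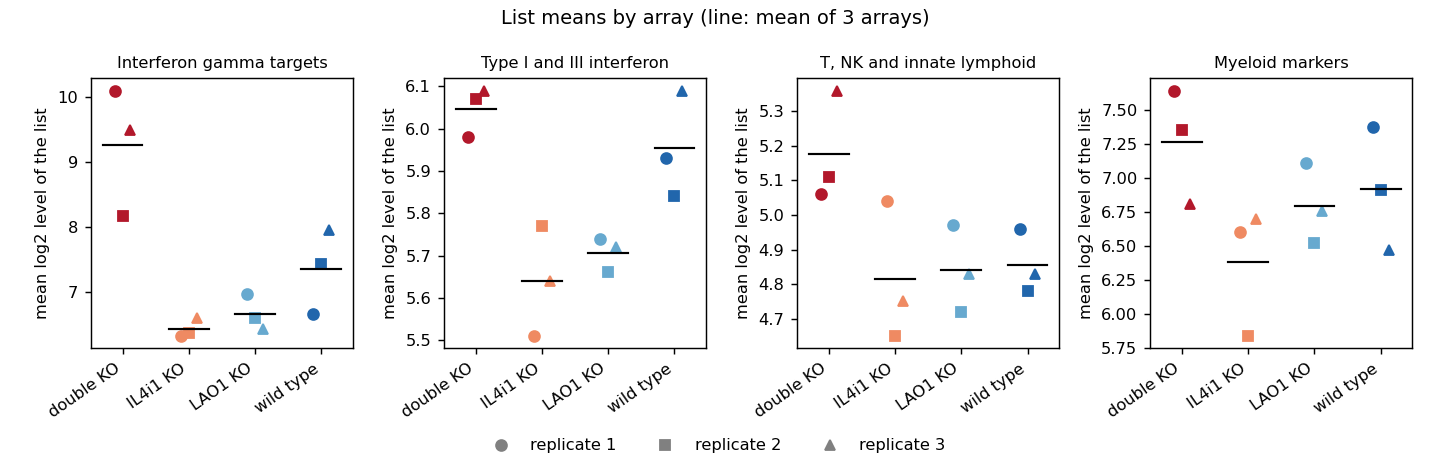
Mean log2 level (y axis) of 4 gene lists on each array, by genotype (x axis); symbols mark replicates and lines the mean of 3 arrays. The double knockout arrays lie above the other 9 for the interferon gamma targets (8.17 to 10.09) and the T, NK and innate lymphoid markers (5.06 to 5.36), and overlap with wild type for the type I and III interferon list and the myeloid markers.

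Genes with the most similar profile were sought for the 4 members that spanned over 3 log2 units, by the root mean square difference of levels over the 12 arrays after centring each gene. For Cd274 the closest was Lgals9, at 0.2, followed by the fatty acid desaturase Fads1 (0.37) and the MHC class I light chain B2m (0.4), beside an SD of 1.08 for Cd274 itself. For Irf1, with an SD of 1.18, they were the MHC class I gene H2-Q4 (0.48), the immunoproteasome subunit Psmb9 and Parp9 (both 0.5). Cxcl10, with an SD of 1.04, lay nearest to the antiviral membrane protein gene Ifitm3 (0.34), then Sema7a (0.37) and Pclaf (0.41). Cxcl9, with an SD of 2.73, lay nearest to Ido1 (1.05), Igtp and Gbp2 (both 1.17). The 12 arrays share genotype groups and DKO replicate 1, so likeness here describes these arrays.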

How the data were processed

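The authors deposited log2 expression values of 12 Affymetrix arrays, per the labels made from 6 µg of total RNA each. Transcriptome Analysis Console is named in the submitters' processing notes, without a version. Summarisation, normalization and genome build are not given in the sources used here. No further scaling was applied, since medians by array ranged only over 5.415 to 5.49. For arrays no read depth exists, so the number of arrays limits the precision.

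Genotypes and replicate numbers came from the labels. Probes were named by the platform annotation: 19572 had 1 symbol and 2634 had none given. One limma model (version 3.58.1, R 4.3.3; lmFit, then eBayes) took in all arrays, with 8 residual degrees of freedom. Two-sided p-values were adjusted within a comparison (Benjamini-Hochberg, all 22206 probes) and read at a threshold of 0.05. The fit was tested on simulated data. Figures used matplotlib 3.10.9 in Python 3.11.15. No array was a copy of another: at most 1.17% of probes were equal in any pair.

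The members, lists and tests were chosen with earlier results of these data known. The rule named all members, and from each of 7 pathway lists the 3 genes with the smallest p in the DKO against wild type and any past the threshold. Alternatives were quantile normalization, median centring, filters and a floor on dim probes, another variance model, the compared arrays alone, leaving out each array, and a replicate block. Leaving out arrays for the list of targets was added after seeing the data.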

Additional observations from a re-analysis of the deposited data

Results flagged for a closer look

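By limma's interaction test over all probes, DKO levels of a pair of members departed from the sum of the single knockouts' differences from wild type. The genotypes rest on the labels, and in the main fit neither gene passed against wild type in any genotype. For Cd274 the interaction was 3.5 on the log2 scale: the DKO averaged 7.58, the IL4i1 knockout 4.92, the LAO1 knockout 5.96 and wild type 6.8, so both single knockouts lay under wild type and the DKO over it. For Irf1 the interaction was 3.12, with averages of 13.38 in the DKO, 10.59 in the IL4i1 knockout, 11.26 in the LAO1 knockout and 11.59 in wild type, and the call depended on single arrays.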

How the results depend on the processing

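Of 958 recomputed differences of single members, 897 kept their direction and their side of the threshold, 12 came to pass it, 31 no longer passed and 18 changed sign or came to 0. The interaction count of members was 1 (main 2) with quantile normalization, with values below background set to it, and with the replicate block. DKO against LAO1 knockout called 1 member (main 0) above the 40th percentile of means, above the background level and with the block, and 2 with the trend and robust variance model. That model called 11 probes in DKO against wild type, and 8, with 1 member, in IL4i1 knockout against wild type. With values below background set to it, calls numbered 2 in LAO1 knockout against wild type, 8 in IL4i1 knockout against wild type, 2 in DKO against LAO1 knockout (members' median 0.91), 25 in DKO against IL4i1 knockout (1 member, median 1.3), 13 in the interaction (1 member, median 1.25) and 16 in DKO against the mean of the others (0 members). On the compared arrays alone, calls numbered 2 in DKO against wild type and 33 in DKO against IL4i1 knockout. In IL4i1 knockout against wild type, signs turned for Ifngr2 with quantile normalization (0.14) and for Cxcl10 at the floor (0.01). All wild type values of Cxcl10 lay below background, as did all its IL4i1 knockout values but replicate 1 (4.72). In LAO1 knockout against wild type the Ifng difference came to 0 at the floor, since all values of both genotypes lay below background. The cause of the other changes was not tested.

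Leaving out 1 array at a time gave 1 to 38 calls in DKO against wild type (members' median 0.59 to 1), 1 to 4 in LAO1 knockout against wild type, 2 to 5 in IL4i1 knockout against wild type, 11 to 68 in DKO against LAO1 knockout (0 to 1 members, median 0.91 to 1.49), 46 to 174 in DKO against IL4i1 knockout (2 to 4 members, median 0.96 to 1.87), 37 to 74 in the interaction (1 to 2 members, median 1.05 to 1.82) and 35 to 150 in DKO against the mean of the others (1 to 3 members, median 0.91 to 1.36). Signs turned within these ranges: in DKO against wild type Ifngr1 (-0.15 to 0.17) and Cxcr3 (-0.17 to 0.23), in LAO1 knockout against wild type Irf1 (-0.73 to 0.07), Socs1 (-0.11 to 0.19), Cxcl10 (-0.19 to 0.06) and Cxcr3 (-0.3 to 0.07), in IL4i1 knockout against wild type Ifngr2 (-0.16 to 0.09) and Cxcl10 (-0.36 to 0.08), and for Cxcr3 in DKO against LAO1 knockout (-0.05 to 0.35) and against the mean of the others (0 to 0.4).

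Replicate numbers were not taken to pair the samples. Of 18 correlations between same-numbered arrays 7 exceeded 0.1 (-0.14 to 0.22), and in 15 of 36 cases an array correlated best with its own number. No chance level was computed for these counts, so they cannot decide on a weak pairing. With the replicate block, calls numbered 166 (main 106) in DKO against IL4i1 knockout, 43 (main 31) in DKO against LAO1 knockout and 60 (main 51) in the interaction. With it Ifng passed in DKO against LAO1 knockout (1.23, adjusted p = 0.0386) and against the mean of the others (0.9, adjusted p = 0.0454), and Irf1 did not pass in the interaction (3.12, adjusted p = 0.0606). Without detection flags, levels of Ifng, Cxcl10 and Socs1 near the background limit what these arrays can show.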

Other observations

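Wild type arrays differed among themselves in this pathway. The listed interferon gamma targets averaged 6.66, 7.44 and 7.96 in wild type replicates 1, 2 and 3, a wider span than the 6.33 to 6.6 of the IL4i1 knockout and the 6.44 to 6.98 of the LAO1 knockout. Cxcl9 lay at 3.97, 5.88 and 6.99 in the same wild type arrays, and Iigp1, an immunity-related GTPase, at 5.12, 7.62 and 9.93. Cd274, at 6.46, 6.95 and 6.98, had its lowest wild type value in replicate 1 too, whereas Irf1 was lowest in replicate 2.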
